A study of Rattus norvegicus with 50 samples.

Results

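The 10 genes described here mark the endothelium of the liver (Tie1, Tek, Kdr, Oit3, Lyve1, Stab1, Stab2, Clec4g, Pecam1 and Cdh5) and were followed in rat liver across 10 groups of animals. Genes were taken by symbol from the probe annotation, with the probe of highest mean standing for a gene. Of the 10 genes, 7 were measured, each by 1 probe, among 14506 genes tested. Stab1, Stab2 and Clec4g were not analysed here, because no probe of the annotation used carried their symbols or gene identifiers.

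Liver RNA from 50 male Sprague Dawley rats, about 3 months old, was profiled with Rat Gene 1.0 ST arrays of Affymetrix, 50 in all, with 1 array for each animal and 5 animals in each group. The first 3 groups received erythropoietin (EPO, the hormone that drives red cell formation) at 2500 IU/kg after controlled cortical impact, a mechanical injury to the brain, and were killed at 24 h, 72 h or 7 days. Another 3 groups received anakinra, a recombinant antagonist of the interleukin-1 receptor, at 100 mg/kg after the same injury, and a further 3 received saline vehicle after it, with the same 3 times. The 10th group was intact sham, with no injury and 5 animals, for which no time or saline injection is labelled. Both drugs were given to injured animals only, so no group shows either drug without brain injury, and how often they were dosed is not stated in the labels.

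The endothelial cells of the liver sinusoids form a fenestrated lining without a continuous basement membrane, through which plasma reaches the hepatocytes. They clear macromolecules from the blood with scavenger receptors, and they keep general endothelial genes beside genes that are characteristic of sinusoids. Tek (also called Tie2) is the receptor of the angiopoietins, Tie1 is its orphan partner receptor, and Kdr is VEGF receptor 2. Oit3 is a secreted protein with a zona pellucida domain, used as a marker of sinusoidal endothelium in mouse, and Lyve1 is a hyaluronan receptor of sinusoidal and lymphatic endothelium. Pecam1 (CD31) and Cdh5 (VE-cadherin) are adhesion molecules of endothelial junctions, and Pecam1 is also carried by platelets and leukocytes. Stab1 and Stab2 are scavenger receptors and Clec4g is a lectin of sinusoidal cells.

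The 250 bases before the annotated start of a gene are shown for Tie1 and Oit3, the genes with the clearest differences between groups, and for Kdr, a receptor gene that passed no test, so that they can be compared. They were taken from RefSeq on the rat build GRCr8, and run 5′ to 3′ on the strand of the gene; the promoter of Lyve1 was also matched, and Tek, Pecam1 and Cdh5 were not in the promoter table. The region is chr5:137304982-137305231 on the minus strand for Tie1, chr20:27953684-27953933 on the minus strand for Oit3 and chr14:32571813-32572062 on the plus strand for Kdr. Capitals mark GGAAG on either strand (CTTCC where it lies on the opposite strand), called the core here. It is a form of the site that transcription factors of the ETS family bind in many endothelial promoters. The shorter GGAA, or TTCC on the opposite strand, also occurs outside the capitals in each region shown and was not counted. The counts below therefore do not compare all ETS sites of the regions.
Tie1: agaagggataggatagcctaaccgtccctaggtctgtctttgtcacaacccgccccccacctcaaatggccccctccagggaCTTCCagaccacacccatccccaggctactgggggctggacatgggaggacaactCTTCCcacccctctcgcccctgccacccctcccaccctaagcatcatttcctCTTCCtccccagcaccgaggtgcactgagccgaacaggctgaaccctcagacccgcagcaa
Oit3: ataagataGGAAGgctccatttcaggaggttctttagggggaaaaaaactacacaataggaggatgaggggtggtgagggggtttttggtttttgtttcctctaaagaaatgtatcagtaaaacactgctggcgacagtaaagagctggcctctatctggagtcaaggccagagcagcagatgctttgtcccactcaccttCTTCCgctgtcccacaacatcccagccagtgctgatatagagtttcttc
Kdr: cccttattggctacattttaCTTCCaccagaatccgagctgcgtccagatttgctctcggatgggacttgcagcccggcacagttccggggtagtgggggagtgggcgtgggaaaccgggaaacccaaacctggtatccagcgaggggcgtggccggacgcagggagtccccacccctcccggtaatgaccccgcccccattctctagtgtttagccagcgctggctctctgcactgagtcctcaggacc
The Tie1 region held the core 3 times, all on the opposite strand, from 168 to 164, from 113 to 109 and from 61 to 57 bases before the start. The Oit3 region held it 2 times, from 242 to 238 bases before the start and, on the opposite strand, from 49 to 45 bases before it. The Kdr region held it 1 time, from 230 to 226 bases before the start on the opposite strand. All 4 matched members (Tie1, Oit3, Kdr and Lyve1) held the core, as did 63.3% of 33469 promoters of the same length, so its presence is common to promoters in general. The letters GATAAG, read by GATA factors, were in 0 of the 4 regions and in 6.18% of all promoters. The letters TTCNNNGAA, read by STAT factors, were in 0 of the 4 and in 7.67% of all. Both strands were searched for each motif, and a match or its absence describes only the letters of these windows.

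Values are log2 intensities as deposited. Array medians lay between 6.66 and 6.89, and the standard deviation over all probes of an array lay between 1.99 and 2.16. It was lowest, at up to 2.04, on 5 arrays, called narrow here (vehicle replicate 3 at 24 h, vehicle replicates 2 and 5 at 72 h, vehicle replicate 3 at 7 days and EPO replicate 3 at 7 days), and the next array stood at 2.06. The mean of 10 hepatocyte genes lay between 12.94 and 13.25 over the 50 arrays, so hepatocyte transcripts were abundant on each, as in liver. Each of the 7 measured members was above the median of its own array on 50 of 50 arrays. These are whole-liver samples, so in every comparison more or fewer endothelial cells and more or less RNA per cell cannot be told apart.

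**Figure D1:**
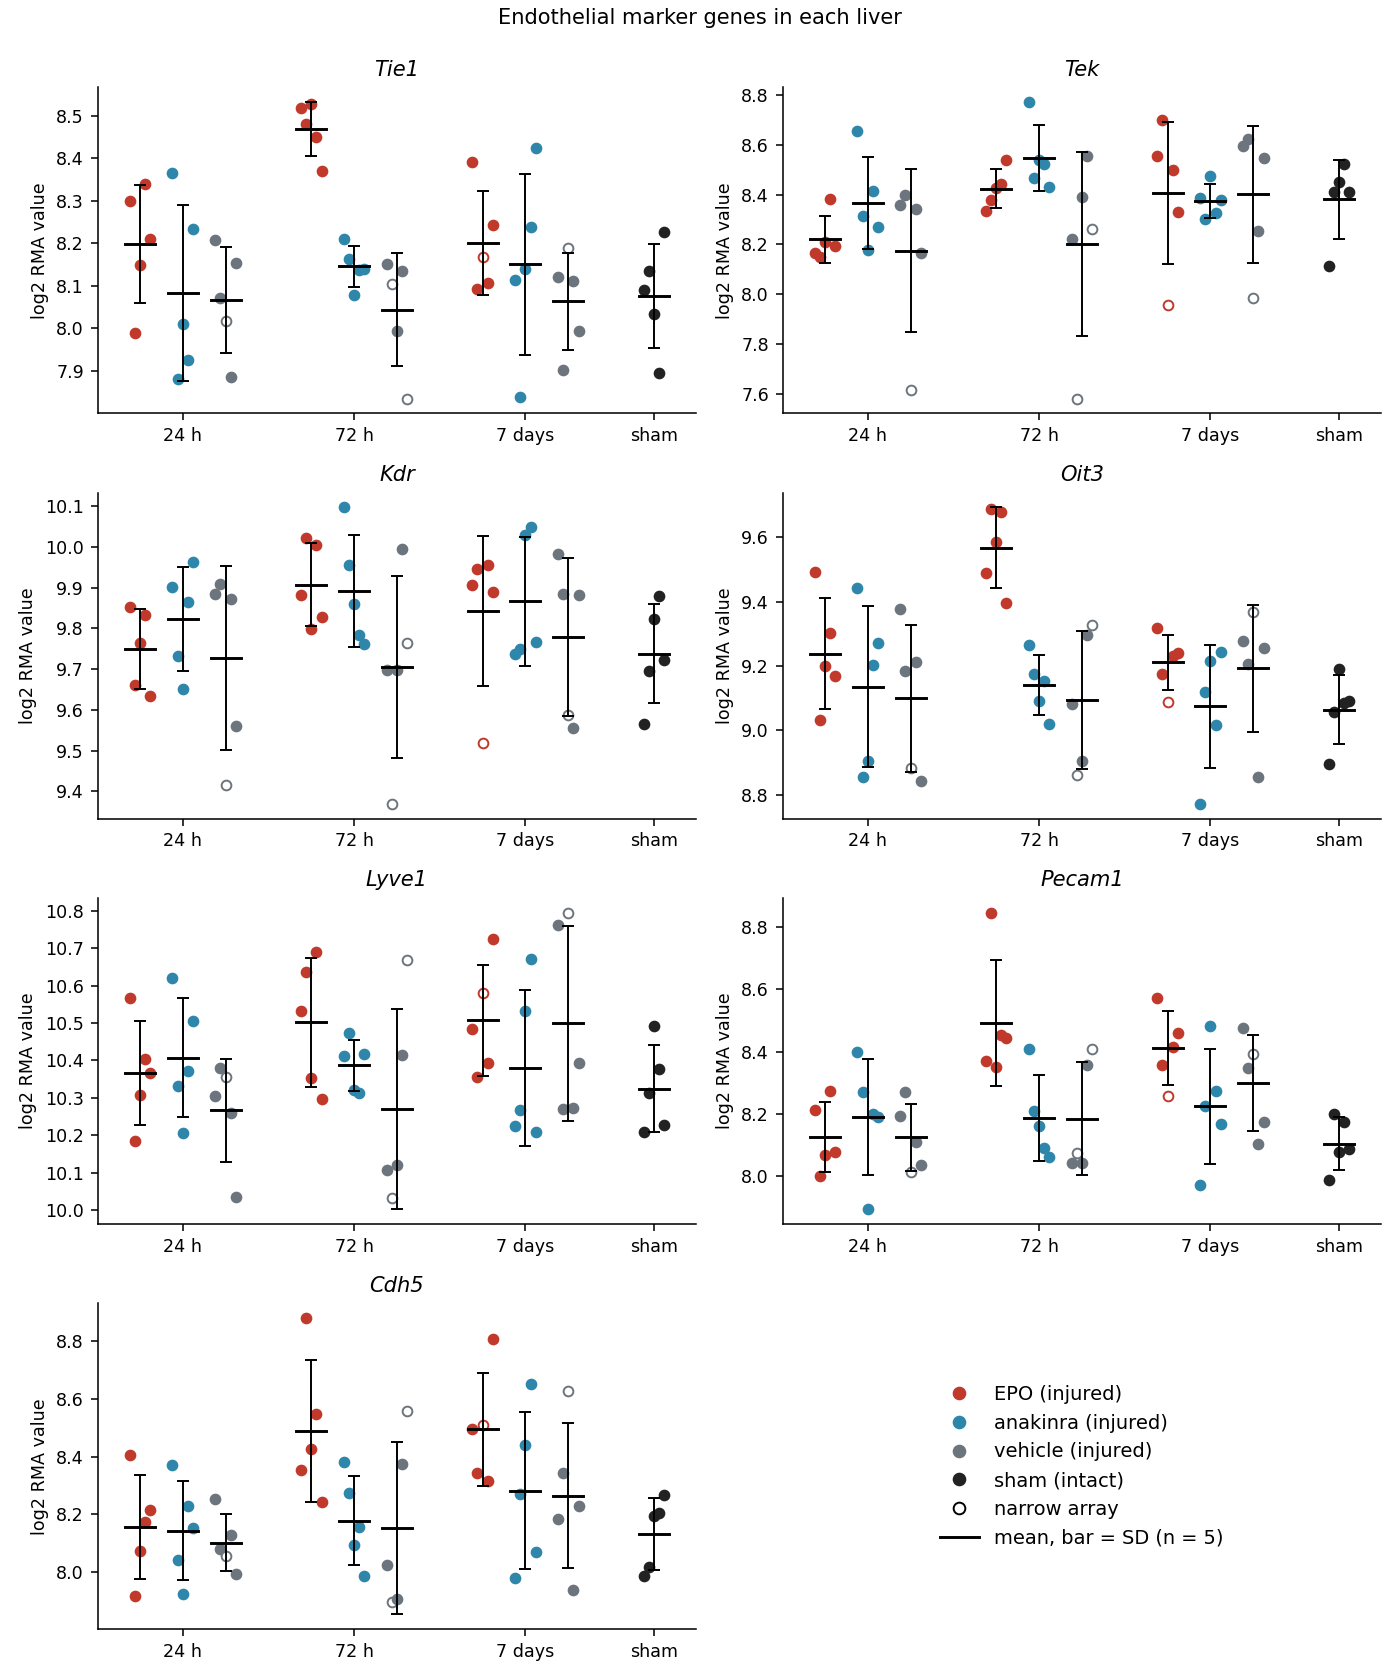
Log2 intensity (vertical axis) of each measured endothelial gene on every array, by group (horizontal axis); points are arrays (open for narrow arrays), horizontal lines are group means and error bars are SD (n = 5). The 5 EPO arrays at 72 h lie between 8.37 and 8.53 for Tie1 and between 9.39 and 9.69 for Oit3, above every anakinra and vehicle array at 72 h and every sham array.

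Tie1 and Oit3 rose in EPO livers at 72 h against vehicle livers of the same time, and no measured member fell. The comparison asked what EPO changed in the liver of the injured animal. Members called at adjusted p under 0.05 (limma with Benjamini-Hochberg adjustment over all genes) numbered 2 of 7, and 2.72% of all genes were called, 2.18% as higher. The fitted difference was above zero for 7 of 7 members, with a median of 0.31 on the log2 scale against -0.03 over all genes. Differences were above zero for 7 of 7 members also in EPO against vehicle livers at 24 h and 7 days, with a median of 0.06 each. The smallest were 0.002 for Pecam1 at 24 h and 0.007 for Tek at 7 days. The members varied together between arrays of a group, as described below, so their 7 signs are not independent. In anakinra against vehicle livers 7 of 7 were also above zero at 24 h and at 72 h, with a median of 0.10 at 72 h. The anakinra comparison at 72 h uses the same vehicle livers.

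Tie1, the orphan receptor, stood at 8.52, 8.48, 8.53, 8.45 and 8.37 in the 5 EPO livers at 72 h, against 8.15, 8.10, 7.99, 8.13 and 7.83 in the vehicle livers. The groups did not overlap, and the lowest EPO liver was above the highest vehicle liver. The group means were 8.47 ± 0.06 with EPO and 8.04 ± 0.13 with vehicle (SD, n = 5 each), a log2 difference of 0.42 with a standard error of 0.089 (1.34-fold, adjusted p = 0.00238 by limma). The call held without any single array of the 10, with adjusted p of at most 0.0128, and without the 5 narrow arrays, at 0.0398. A fit on the arrays of these groups alone, with its own estimate of the spread, gave 0.0799 for the same difference.

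Oit3, the sinusoidal marker, stood at 9.49, 9.69, 9.58, 9.68 and 9.39 in the EPO livers, against 9.08, 8.86, 8.91, 9.30 and 9.33 in the vehicle livers. Here too every EPO liver was above every vehicle liver, though the lowest EPO value and the highest vehicle value were close. The means were 9.57 ± 0.13 with EPO and 9.09 ± 0.21 with vehicle (SD, n = 5 each), a log2 difference of 0.47 with a standard error of 0.11 (1.39-fold, adjusted p = 0.00702 by limma). The call was lost without vehicle replicate 2, a narrow array, at an adjusted p of 0.0519 and a difference of 0.41, and in the fit on the arrays of these groups alone, at 0.122. Of all genes, 1.11% had their EPO arrays at 72 h wholly above the vehicle arrays, as Tie1 and Oit3 did.

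The junction genes were higher in the mean but did not pass. Pecam1 had 8.37, 8.85, 8.35, 8.45 and 8.44 in the EPO livers, against 8.04, 8.07, 8.04, 8.36 and 8.41 in the vehicle livers, so the groups overlapped in the range of the vehicle replicates 4 and 5. Its difference was 0.31 on the log2 scale with an adjusted p of 0.0738, and it passed when EPO replicate 1 (0.0307), vehicle replicate 4 (0.0353) or vehicle replicate 5 (0.0333) was left out. Cdh5 had 8.35, 8.88, 8.43, 8.55 and 8.24 in the EPO livers, against 8.02, 7.89, 7.91, 8.37 and 8.56 in the vehicle livers, a difference of 0.34 with an adjusted p of 0.141. Only 1 of the 5 EPO livers was above all vehicle livers for Cdh5.

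Lyve1, the hyaluronan receptor, had 10.53, 10.64, 10.35, 10.69 and 10.30 in the EPO livers, against 10.11, 10.03, 10.12, 10.42 and 10.67 in the vehicle livers. The groups overlapped, since vehicle replicate 5 exceeded 4 of the EPO livers, and the difference was 0.23 with an adjusted p of 0.232. The angiopoietin receptor Tek had 8.33, 8.38, 8.43, 8.44 and 8.54 in the EPO livers, against 8.22, 7.58, 8.39, 8.55 and 8.26 in the vehicle livers. Vehicle replicate 2, a narrow array, stood far below the rest, and no EPO liver exceeded the highest vehicle liver. The difference for Tek was 0.22, with a 95% interval of -0.05 to 0.50 and an adjusted p of 0.348. Without vehicle replicate 2 it was 0.07 (adjusted p = 0.903 by limma). For Kdr, the VEGF receptor, values were 9.88, 10.02, 9.80, 10.004 and 9.83 in the EPO livers and 9.70, 9.37, 9.70, 9.995 and 9.76 in the vehicle livers, a difference of 0.20 with a 95% interval of -0.01 to 0.41 and an adjusted p of 0.261. Without vehicle replicate 2 the Kdr difference was 0.12 (adjusted p = 0.719 by limma). With all arrays the interval of Tek reaches past the Tie1 difference of 0.42 and that of Kdr nearly to it, so these data do not show that the 2 receptors kept their level.

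Against anakinra livers at 72 h, which carried the same injury and another drug, Tie1 and Oit3 were again called higher in EPO livers. The anakinra livers stood at 8.21, 8.16, 8.08, 8.14 and 8.14 for Tie1 and at 9.27, 9.17, 9.09, 9.15 and 9.02 for Oit3, all below the EPO livers given above. The log2 differences were 0.32 for Tie1 (adjusted p = 0.0419) and 0.43 for Oit3 (adjusted p = 0.0231) by limma, and 2 of 7 members were called where 1.94% of all genes were, 1.74% as higher. Their EPO arrays lay wholly above the anakinra arrays, as did those of 1.48% of all genes. Pecam1 differed by 0.31 (adjusted p = 0.101) and Cdh5 by 0.31 (adjusted p = 0.327). Lyve1 differed by 0.11, Kdr by 0.02 and Tek by -0.12, Tek being the one member with a mean below that of anakinra livers, and none of these passed.

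Single arrays decided some of these calls against anakinra livers. Tie1 kept its call without EPO replicate 5 and lost it without any other single array of the 10 (adjusted p of up to 0.127 without anakinra replicate 3), and it stood at 0.0857 with each array centred on its median and at 0.0563 on the arrays of these groups alone. Oit3 lost its call without EPO replicate 2 (0.0887), EPO replicate 4 (0.0826), anakinra replicate 3 (0.0722) or anakinra replicate 5 (0.0848). Pecam1 passed without anakinra replicate 1, at 0.0491.

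Against intact sham livers, Tie1, Oit3 and Pecam1 were called higher in EPO livers at 72 h, 3 of 7 members where 3.46% of all genes were called, 2.74% as higher. Sham livers stood at 8.09, 8.13, 8.03, 7.90 and 8.23 for Tie1, at 8.90, 9.06, 9.19, 9.09 and 9.09 for Oit3 and at 7.99, 8.20, 8.08, 8.17 and 8.09 for Pecam1. For these 3 genes the EPO livers all lay above all sham livers, as was the case for 2.71% of all genes. The log2 differences were 0.39 for Tie1 (adjusted p = 0.00476), 0.50 for Oit3 (adjusted p = 0.00301) and 0.39 for Pecam1 (adjusted p = 0.0115) by limma. Tie1 and Oit3 kept their calls without any single array of the 10, with adjusted p of at most 0.0259 for Tie1 and 0.0172 for Oit3. Pecam1 lost its call without EPO replicate 2 (0.109, difference 0.30), the highest array for that gene at 8.85, and stood at 0.0546 in the fit on the arrays of these groups alone. Cdh5 differed by 0.36 with an adjusted p of 0.131, 4 of 5 EPO livers being above all sham livers, and Lyve1 (0.18), Kdr (0.17) and Tek (0.04) did not pass. The comparisons of EPO livers at 72 h with vehicle, anakinra and sham livers use the same 5 EPO arrays, so they are not independent of each other.

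**Figure D2:**
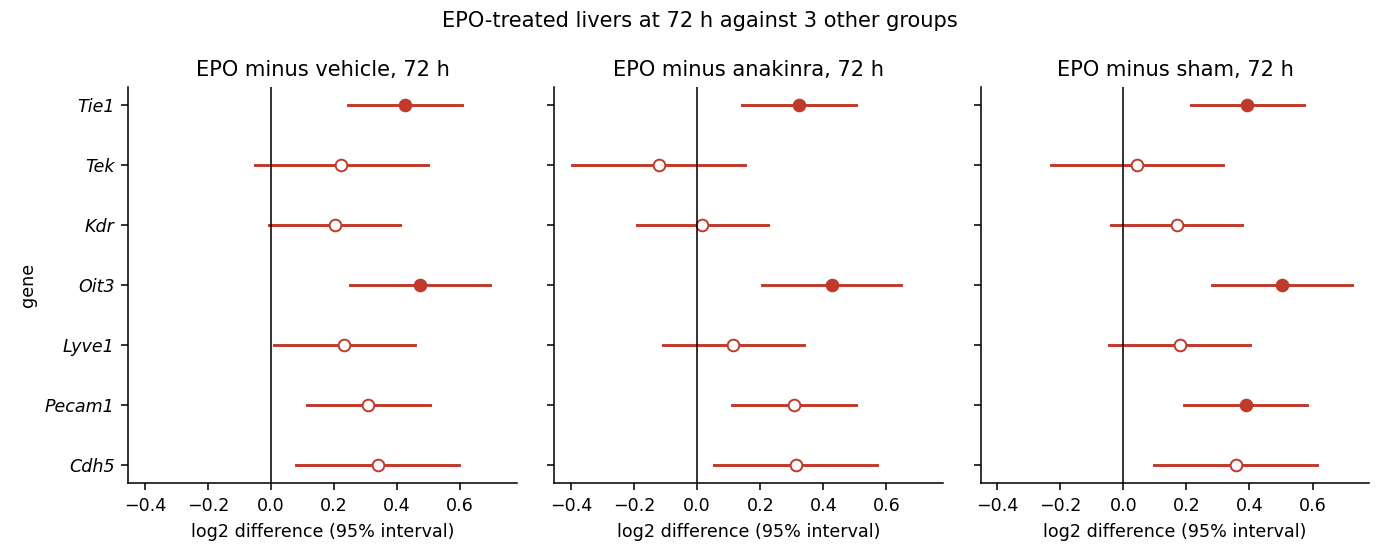
Fitted log2 difference (horizontal axis) with its 95% interval for each measured endothelial gene (vertical axis), EPO livers at 72 h minus vehicle livers at 72 h (left), anakinra livers at 72 h (middle) and sham livers (right). Filled points passed at adjusted p under 0.05, which are Tie1 and Oit3 in all 3 panels and Pecam1 against sham livers; Tek lies at 0.22, -0.12 and 0.04.

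Set against all other arrays of the series, 4 of the 5 EPO arrays at 72 h were higher for Tie1 than each of the 45 other arrays, of which the highest was anakinra replicate 5 at 7 days, at 8.42. For Oit3 it was 3 of 5, and the highest other array was EPO replicate 1 at 24 h, at 9.49. For Pecam1 and Cdh5 it was 1 of 5 each (EPO replicate 2), and for Tek, Lyve1 and Kdr none of the 5. In the order of the 10 group means, Tie1 had EPO livers at 72 h first, at 8.47, above EPO livers at 7 days, at 8.20, by 0.27, more than the pooled SD of those groups. The other 8 neighbouring pairs of groups for Tie1 differed by less than their SD. Oit3 had EPO livers at 72 h first, above EPO livers at 24 h by 0.33, again the one neighbouring gap beyond the SD. Pecam1 and Kdr were also highest in EPO livers at 72 h, Lyve1 and Cdh5 in EPO livers at 7 days and Tek in anakinra livers at 72 h. In none of Pecam1, Kdr, Lyve1 and Cdh5 did neighbouring groups differ by more than their SD, while Tek had 2 such gaps among 9. Neither these array ranks nor these gaps were counted over all genes, so how common they are among genes is not known.

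At 24 h no measured member passed between EPO livers and vehicle livers. The means with EPO and with vehicle were 8.20 ± 0.14 and 8.07 ± 0.13 for Tie1, and 9.24 ± 0.17 and 9.10 ± 0.23 for Oit3 (SD, n = 5 each). By limma 0 of 7 members were called and 0 had an unadjusted p under 0.05, where 0.0276% of all genes were called; the smallest adjusted p among members was 0.538. Differences ran from 0.00 for Pecam1 to 0.14 for Oit3. Against anakinra livers at 24 h 0 of 7 were called (0 at an unadjusted p under 0.05, 0.0207% of all genes called), and against sham livers 0 of 7 as well (0 at an unadjusted p under 0.05, 0.434% of all genes called).

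At 7 days neither Tie1 nor Oit3 passed between EPO livers and vehicle, anakinra or sham livers. EPO livers of different times were not compared with each other in pairs. Tie1 averaged 8.20 ± 0.12 with EPO and 8.06 ± 0.11 with vehicle, and Oit3 averaged 9.21 ± 0.09 with EPO and 9.19 ± 0.20 with vehicle (SD, n = 5 each). By limma 0 of 7 members were called against vehicle livers, 0 had an unadjusted p under 0.05, and 0.365% of all genes were called. Against anakinra livers it was also 0 of 7 (0 at an unadjusted p under 0.05, 0.441% of all genes called).

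The junction genes stood higher than in sham livers at 7 days without passing the test. Pecam1 had 8.57, 8.36, 8.26, 8.42 and 8.46 in EPO livers at 7 days, all above the sham livers, whose highest was 8.20. Cdh5 had 8.50, 8.34, 8.51, 8.32 and 8.81 in the EPO livers, all above the sham values of 7.99, 8.02, 8.19, 8.20 and 8.27. The log2 differences were 0.31 for Pecam1 (adjusted p = 0.0664) and 0.36 for Cdh5 (adjusted p = 0.108) by limma. Thus 0 of 7 members were called against sham livers at 7 days, where 2.86% of all genes were called. An unadjusted p under 0.05 was found for 2 of the 7 and for 2657 of all 14506 genes. Wholly separated arrays of this kind were found for 2.53% of all genes. Both passed with array weights (0.0433 for Pecam1, 0.0469 for Cdh5) and in the fit on the arrays of these groups alone (0.0376 and 0.0483), and Pecam1 passed without the narrow arrays (0.0453) and when genes under the median level were left out (0.0420). Vehicle livers at 7 days averaged 8.30 for Pecam1 and 8.26 for Cdh5, between the EPO and the sham livers, and vehicle minus sham differed by 0.19 for Pecam1 (adjusted p = 0.757). Platelet markers, which share Pecam1 with endothelium, had array means of 6.64 to 7.26 in EPO livers at 7 days and 6.42 to 6.69 in sham livers, and 2 of 5 passed. Kupffer cell markers had array means of 8.93 to 9.57 in EPO livers and 8.99 to 9.40 in sham livers, and 0 of 11 passed by limma (0 at an unadjusted p under 0.05). Red cell precursor markers had array means of 8.48 to 9.54 in EPO livers and 6.49 to 7.10 in sham livers, and 9 of 11 rose (median 2.47). The part of these cells in the Pecam1 and Cdh5 values was not tested.

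**Figure D3:**
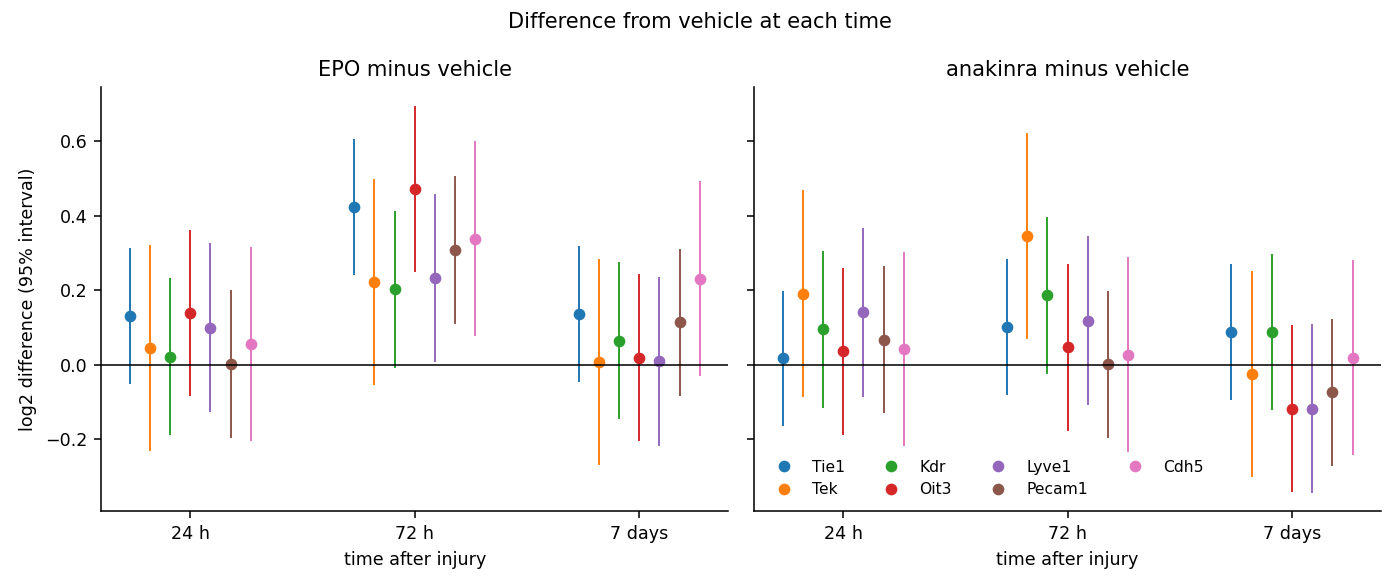
Difference in group mean of log2 intensity from vehicle livers of the same time (vertical axis) for each measured endothelial gene in EPO livers and in anakinra livers at 24 h, 72 h and 7 days (horizontal axis), with 95% intervals. The EPO differences for Tie1 and Oit3 at 72 h are 0.42 and 0.47, against 0.13 and 0.14 at 24 h and 0.14 and 0.02 at 7 days.

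Whether the EPO difference itself changed with time was tested as an interaction of drug and time in the same fit. By limma 0 of 7 members were called, where 0.214% of all genes were, with 2 at an unadjusted p under 0.05: Oit3 (adjusted p = 0.469) and Tie1 (adjusted p = 0.568). The higher level of Tie1 and Oit3 at 72 h was thus not shown to differ from the EPO difference at the other times. A test for any difference among the 10 groups called 3 of 7, Tie1 (adjusted p = 0.0233), Oit3 (0.0370) and Pecam1 (0.0402), where 5.67% of all genes were called. That count was 0 without EPO replicate 2 or 4 at 72 h, and 1 without sham replicate 1 or EPO replicate 1 or 3 at 72 h.

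No measured member passed between injured animals given vehicle and sham animals. Vehicle livers were compared with sham livers at each time, and by limma 0 of 7 members were called at 24 h, at 72 h and at 7 days, with 0 at an unadjusted p under 0.05 each time. Of all genes, 0.827% were called at 24 h, 0% at 72 h and 0% at 7 days. Differences lay between -0.21, for Tek at 24 h, and 0.19, for Pecam1 at 7 days. The widest 95% intervals of the members ran down to -0.48 (Tek at 24 h) and up to 0.40 (Lyve1 at 7 days). A test across the 3 times of the vehicle livers called no member either (0 of 7 called by limma, 0 at an unadjusted p under 0.05, 0.0689% of all genes called).

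No measured member passed between anakinra livers and vehicle livers. By limma 0 of 7 were called at each time, where 0%, 0% and 0.0138% of all genes were called at 24 h, 72 h and 7 days. Tek at 72 h was the 1 member with an unadjusted p under 0.05, as were 1546 of all 14506 genes at 72 h. It had 8.77, 8.47, 8.54, 8.52 and 8.43 in anakinra livers, against the vehicle values given above. The means were 8.55 ± 0.13 with anakinra and 8.20 ± 0.37 with vehicle (SD, n = 5 each), a log2 difference of 0.35 with an adjusted p of 0.454. The lowest vehicle liver, narrow replicate 2 at 7.58, stood apart from the other vehicle livers, of which the lowest was at 8.22. Without it the Tek difference was 0.19 (adjusted p = 0.942 by limma). The interaction of anakinra and time passed for no member (0 of 7 called by limma, 0 at an unadjusted p under 0.05, 0% of all genes called).

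Other genes of the sinusoidal endothelium were read beside the members in EPO livers at 72 h. Of 19 listed genes 15 were measured, 4 rose against vehicle livers and none fell, where 2.72% of all genes were called. The list median was 0.21 on the log2 scale against -0.03 over all genes. Cd36, a receptor for fatty acids and thrombospondin that many cell types carry, rose by 1.499 (2.83-fold, adjusted p = 5.69e-06 by limma). Mrc1, the mannose receptor shared with macrophages, rose by 0.61 (adjusted p = 0.00424), Flt4, VEGF receptor 3, by 0.37 (adjusted p = 0.0316) and Fcgr2b, an inhibitory Fc receptor, by 0.46 (adjusted p = 0.0472). The count was 2 without any one of vehicle replicates 1, 2 and 3 or EPO replicates 2 and 5, when Fcgr2b and Flt4 did not pass. Cd36 was called without any single array of the 10 and in the fit on these groups alone, and Mrc1 was called without any single array but stood at 0.162 in that fit.

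Against anakinra livers at 72 h Cd36 and Flt4 rose among the sinusoidal genes, by 1.22 and 0.42. They were 2 of 15, where 1.94% of all genes were called. Flt4 lost that call without EPO replicate 2, at 0.0837. Against sham livers 4 of 15 rose, where 3.46% of all genes were called. These were Cd36 by 1.58, Mrc1 by 0.56, Flt4 by 0.53 and the lysosomal protease Ctsl by 0.25. Ctsl lost its call without any of 7 of the 10 arrays (adjusted p of up to 0.170), and Mrc1 without sham replicate 1 (0.0531). Cd36 also rose at 7 days, by 1.14 against vehicle livers, by 1.30 against anakinra livers and by 1.28 against sham livers. It was 1 of 15 each time, where 0.365%, 0.441% and 2.86% of all genes were called.

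Of 28 measured general endothelial genes (33 listed), 1 rose at 72 h against vehicle livers and none fell, with a median of 0.13, where 2.72% of all genes were called. It was Ctla2a, a cathepsin inhibitor, which rose by 0.62 (adjusted p = 0.0321 by limma), a call lost without vehicle replicate 1 or 2 or EPO replicate 2 or 5 (up to 0.154). Against anakinra livers 0 of 28 passed by limma, with 7 at an unadjusted p under 0.05, as were 1443 of all 14506 genes. Against sham livers Ctla2a (0.72) and Jam2 (0.45), a junction molecule, rose, 2 of 28, where 3.46% of all genes were called. Without EPO replicate 2 neither passed against sham livers, and Jam2 lost its call without 5 of the 10 arrays.

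The angiopoietin and VEGF system around Tek, Tie1 and Kdr gave 1 called gene of 16 measured against vehicle livers at 72 h (19 listed, median 0.05). It was the receptor Flt4 named above, where 2.72% of all genes were called. Angpt1 and Vegfa, ligands of Tek and Kdr, are named here after their values were seen: Angpt1 differed by 0.33 (adjusted p = 0.148) and Vegfa by -0.08 (adjusted p = 0.700). Against anakinra livers Flt4 and Angpt2, a context-dependent ligand of Tek, rose, 2 of 16, where 1.94% of all genes were called. Angpt2 stood at 6.46 in EPO livers and 6.04 in anakinra livers (0.42, adjusted p = 0.00225 by limma). That call of Angpt2 held without any single array, with adjusted p of at most 0.0120. The Angpt2 means in EPO and anakinra livers lay below the lowest array median of the series, 6.66, and no detection calls are given. Against sham livers Flt4, Angpt2 (0.31) and Vegfb (0.41), a ligand of VEGF receptor 1, rose. They were 3 of 16, where 3.46% of all genes were called. The calls of Angpt2 and Vegfb against sham livers were lost without 6 and 7 of the 10 arrays, with adjusted p of up to 0.103 and 0.109, and both with each array centred on its median.

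Among 33 measured transcription factors and Notch genes of endothelium (38 listed), 0 were called by limma against vehicle livers and 0 against anakinra livers at 72 h. The medians were 0.03 and 0.06. An unadjusted p under 0.05 was found for 5 of the 33 in each comparison. Of all 14506 genes it was found for 2908 against vehicle livers and for 1443 against anakinra livers. Against sham livers Fli1, an ETS factor, rose by 0.34 (adjusted p = 0.0419 by limma), a call lost without 7 of the 10 arrays; it was 1 of 33, where 3.46% of all genes were called. Of 7 Wnt, BMP and growth factor ligands, which endothelial cells release to act on hepatocytes, 1 rose against vehicle livers. The list median was -0.03, and 2.72% of all genes were called. That ligand, Hgf (hepatocyte growth factor, which stellate cells also make), had means of 9.12 with EPO and 8.48 with vehicle, a difference of 0.64 (adjusted p = 0.000147 by limma). It rose by 0.64 against anakinra and by 0.65 against sham livers too, and none of these 3 calls was lost without any single array.

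Outside 72 h few genes of these endothelial lists passed. Against sham livers at 24 h, Flt4 (0.41, adjusted p = 0.0486) and Vegfb (0.48, adjusted p = 0.0440) rose in EPO livers, and each lost its call without 9 of the 10 arrays. They were 2 of 16 angiopoietin and VEGF genes, and Flt4 was also 1 of 15 sinusoidal genes, where 0.434% of all genes were called. Against sham livers at 7 days Ctla2a (0.66), Vegfb (0.45) and Epas1 (0.33), an oxygen-regulated transcription factor, rose beside Cd36. Those 3 calls were lost without 5, 6 and 9 of the 10 arrays, while that of Cd36 was kept without any single array. The calls were 1 of 28 general, 1 of 16 angiopoietin and VEGF, 1 of 33 transcription factor and 1 of 15 sinusoidal genes. Of all genes 2.86% were called there. No gene of the 5 endothelial lists was called by limma in vehicle against sham livers, in anakinra against vehicle livers or in EPO against vehicle livers at 24 h. The genes at an unadjusted p under 0.05 are given here for 15 sinusoidal, 28 general, 16 angiopoietin and VEGF, 33 transcription factor and 7 ligand genes, in that order. In EPO against vehicle livers at 24 h they numbered 2, 1, 1, 1 and 2, beside 1572 of all 14506 genes. In anakinra against vehicle livers they numbered 0, 1, 1, 1 and 0 at 24 h, 0, 2, 2, 1 and 0 at 72 h, and 1, 0, 0, 6 and 0 at 7 days. Of all 14506 genes there were 616, 1546 and 1106 at these times. In vehicle against sham livers the list genes numbered 4, 7, 2, 6 and 1 at 24 h, 0, 2, 2, 4 and 0 at 72 h, and 0, 1, 1, 2 and 0 at 7 days. All genes at that threshold numbered 2310, 1757 and 946 of 14506 at these times.

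**Figure D4:**
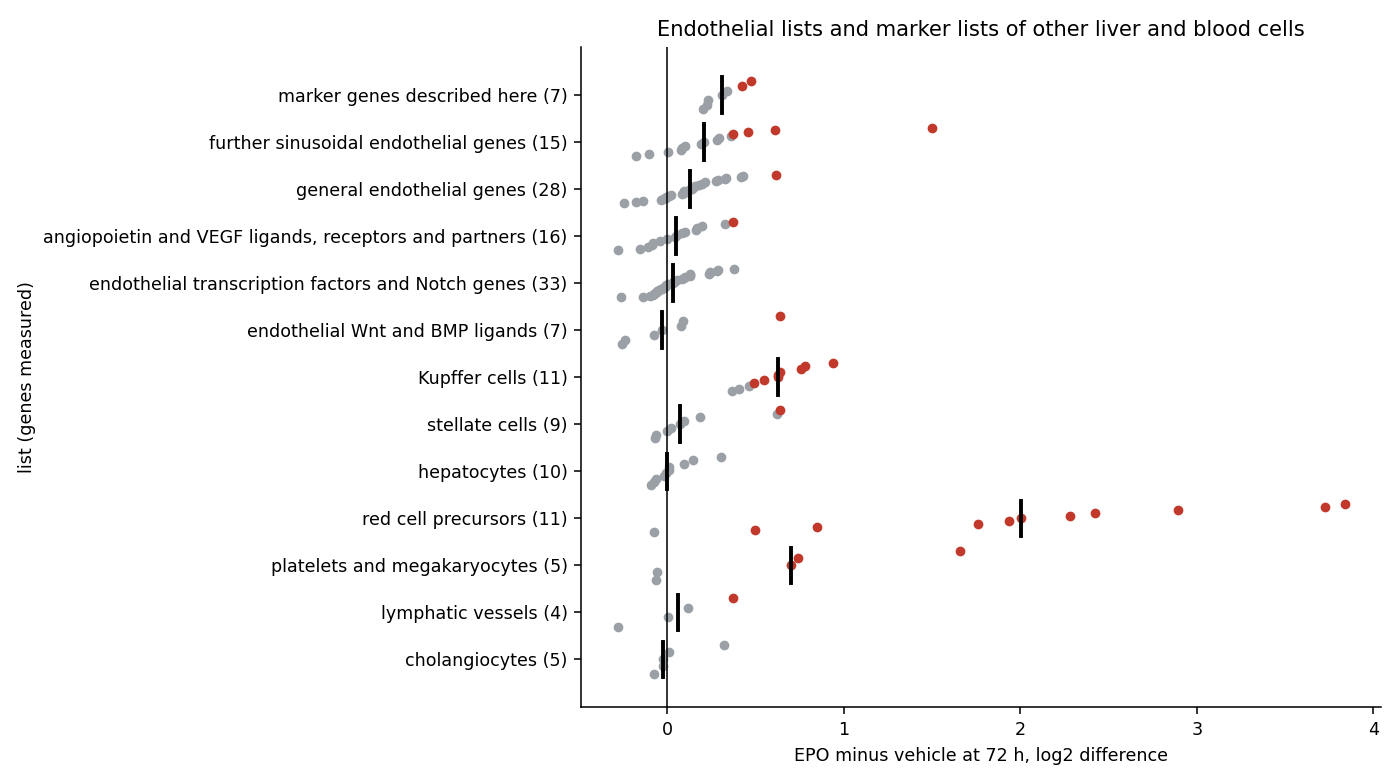
Log2 difference (horizontal axis) of every measured gene of each list (vertical axis) in EPO livers at 72 h minus vehicle livers at 72 h; points are genes, red where they passed at adjusted p under 0.05, and black bars are list medians. The members have a median of 0.31, the Kupffer cell list 0.63, the red cell precursor list 2.002 and the hepatocyte list 0.00.

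Markers of other cells also rose in the same EPO livers. Of all genes, 2.72% were called against vehicle, 1.94% against anakinra and 3.46% against sham livers at 72 h. Of 11 measured Kupffer cell markers (resident macrophages of the sinusoid), 8 rose against vehicle livers at 72 h, those with the smallest p being Cd163 (0.78) and Vsig4 (0.76), and the list median was 0.63. The mean of the list per array ranged from 9.42 to 9.65 in EPO livers, from 8.77 to 9.39 in anakinra livers, from 8.50 to 9.35 in vehicle livers and from 8.99 to 9.40 in sham livers. In the fit on the arrays compared alone, 0 of the 11 passed against vehicle livers, and 3 passed without vehicle replicate 1, vehicle replicate 2 or EPO replicate 2. Against anakinra livers 2 of 11 rose (median 0.38), with 0 left without EPO replicate 2 or 5 or anakinra replicate 3 or 5. Against sham livers 3 of 11 rose (median 0.36), with 1 left without EPO replicate 2 or 5 or sham replicate 2 or 3.

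Red cell precursor markers rose in 10 of 11 measured genes against vehicle livers (median 2.002), with Rhag up by 2.002 and Slc4a1 by 2.89. Their mean per array ranged from 8.50 to 10.06 in EPO livers, from 6.22 to 8.26 in anakinra livers, from 6.54 to 7.84 in vehicle livers and from 6.49 to 7.10 in sham livers. Of 5 measured platelet and megakaryocyte markers 3 rose (median 0.70, Ppbp by 1.66; 1 of 5 passed in the fit on these groups alone), with array means of 6.90 to 7.69 in EPO livers, 6.38 to 6.90 in anakinra livers, 6.61 to 6.77 in vehicle livers and 6.42 to 6.69 in sham livers. Hepatocyte markers gave 0 of 10 called by limma (0 at an unadjusted p under 0.05) and a median of 0.00, stellate cell markers 1 of 9 (Hgf), lymphatic vessel markers 1 of 4 (Flt4) and cholangiocyte markers 0 of 5 (0 at an unadjusted p under 0.05). The mean of the 7 endothelial members per array ranged from 9.02 to 9.28 in EPO livers, 8.83 to 9.08 in anakinra livers, 8.56 to 9.02 in vehicle livers and 8.69 to 8.89 in sham livers. None of the markers is at zero, since log2 array values have none, and the part of macrophages, red cell precursors and platelets in the member differences was not tested.

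The members varied together to different degrees between animals of the same group. Over the 50 arrays, after the mean of each group was taken off, the 21 pairs of members had Pearson correlations from 0.01 (Tie1 with Tek) to 0.80 (Tek with Kdr), with a median of 0.46, and 9 pairs were above 0.6. Oit3, Lyve1, Pecam1 and Cdh5 formed the closest group, with 0.78 between Lyve1 and Cdh5, 0.72 between Pecam1 and Cdh5 and 0.70 between Oit3 and Cdh5. Tie1 correlated with no other member above 0.32 (Oit3), and at 0.01 with its partner receptor Tek. Arrays share the scan and normalization of a sample, so these correlations describe the arrays and carry no test.

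**Figure D5:**
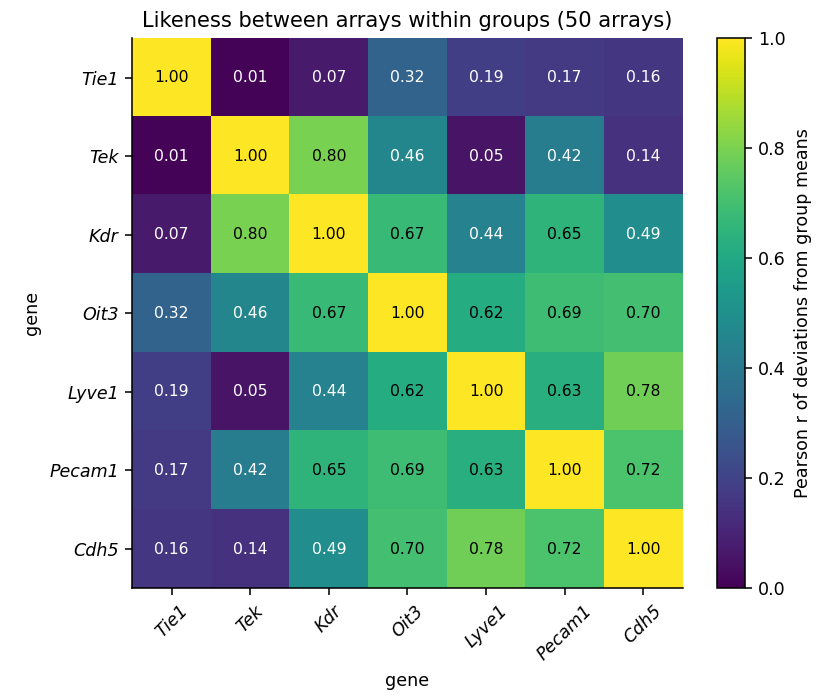
Pearson correlation (colour and number) between each pair of measured endothelial genes over 50 arrays, computed on deviations from group means. The values run from 0.01 between Tie1 and Tek to 0.80 between Tek and Kdr.

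The spread of the array itself went with some members. Within groups, the correlation of a member with the standard deviation of its array was 0.72 for Tek and 0.43 for Kdr, and between -0.26 (Lyve1) and 0.18 (Oit3) for the others. With group differences included, Tek and Kdr correlated with each other at 0.80 over all 50 arrays and at 0.64 without the narrow arrays. The lowest value of the whole series was on vehicle replicate 2 at 72 h for Tek (7.58), Lyve1 (10.03), Kdr (9.37) and Cdh5 (7.89), and on vehicle replicate 5 at 72 h for Tie1 (7.83), both narrow arrays.

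Genes whose pattern was most like each member were taken as the 3 highest Pearson correlations over the 50 arrays among all genes tested, group differences included. Tie1 was nearest to Thbs1 (0.68), Csf2rb (0.68) and Plcl2 (0.67), and Oit3 to Cd93 (0.82), Ggta1 (0.76) and Stom (0.76). Tek was nearest to App (0.86), Wls (0.82) and Tmod3 (0.81), and Kdr to Tek (0.80), Flt1 (0.77) and Bace2 (0.76). Lyve1 was nearest to Cdh5 (0.78), Cd4 (0.74) and Ehd3 (0.73), Pecam1 to Cdh5 (0.81), Lcp1 (0.81) and Pld4 (0.77), and Cdh5 to Cd4 (0.88), Ehd4 (0.82) and Pecam1 (0.81). The mean of the 7 members was nearest to Flt1 (0.83), the gene of VEGF receptor 1, to Cd93 (0.81) and to Lcp1 (0.79), a leukocyte actin-bundling protein. Within groups the likeness of Tie1 to Csf2rb fell by more than that of the other named pairs, to 0.27, while the likeness of Oit3 to Cd93 was 0.78 and that of Tek to App 0.84.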

How the data were processed

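Total liver RNA was hybridised to 50 Affymetrix Rat Gene 1.0 ST arrays, 1 for each animal. The authors deposited log2 values processed with RMA in oligo, per the submitters' processing notes, which give no versions. Of 29214 probes, 15310 carried 1 gene symbol in the platform annotation, 323 several and 13581 none. The probe with the highest mean over the 50 arrays stood for a gene (527 of 14506 genes had several). In R 4.3.3, limma 3.58.1 fitted 1 mean for each of the 10 groups over all 50 arrays (40 residual degrees of freedom), with 15 comparisons and 4 F tests. Adjusted p is Benjamini-Hochberg over 14506 genes, two-sided, called under 0.05. The fit was run on simulated data with independent noise, of the same spread on every array for a gene. Narrow arrays and correlation between genes were not simulated, so that run does not bear on them. Arrays are given no detection calls, and their number limits the precision. All listed members are reported; from the other endothelial lists up to 4 called genes with the smallest p are named for a comparison, and up to 2 from the marker lists of other cells. Members and lists were chosen with earlier results of these data known. The alternatives were array weights, a trended robust variance, only the groups compared, no narrow arrays, median centring, genes above the median level, all probes, a replicate block and each array left out.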

Additional observations from a re-analysis of the deposited data

Results flagged for a closer look

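Of 70 sets of 5 arrays (7 members in 10 groups), 4 held an array whose gap to its nearest neighbour was large for the range of the set; chance alone gives about 1 in 20 such sets. Pecam1 on EPO replicate 2 at 72 h stood at 8.85, with the next array at 8.45. Kdr on EPO replicate 3 at 7 days, a narrow array, stood at 9.52, with the next at 9.89. Tek on EPO replicate 4 at 24 h stood at 8.38, with the next at 8.21, and Tek on sham replicate 1 stood at 8.11, with the next at 8.41.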

How the results depend on the processing

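No result of the 7 members reversed its direction under a call. In the fit on the arrays compared alone, 0 members were called in EPO against vehicle livers at 72 h, 1 in EPO against anakinra livers at 72 h and 2 in EPO against sham livers at 7 days. In that setting 53 genes of the whole table were called for EPO against vehicle at 72 h and 76 for EPO against anakinra at 72 h, against 395 and 281 in the fit on all arrays. With each array centred on its median, 1 member was called in EPO against anakinra livers at 72 h. In EPO against sham livers at 7 days 2 members were called with array weights, 1 without the 5 narrow arrays and 1 with only genes above the median level. Leaving out each array in turn gave 1 to 3 members called in EPO against vehicle livers at 72 h, 0 to 2 against anakinra livers, 2 to 3 against sham livers, 0 to 3 in the test of any of the 10 groups, and 0 to 0 in the other comparisons and tests. The cause of these differences was not tested. Fits with a left-out array or fewer groups have fewer residual degrees of freedom. The narrow arrays are 4 vehicle arrays and 1 EPO array. Same-numbered arrays of the groups compared correlated above 0.1 in every pair in 0 of 15 comparisons (range -0.26 to 0.62, median 0.04). Pairing of animals by number was thus not shown, though a rule that needs every pair cannot exclude it. With the replicate block, 2, 2 and 3 members were called in EPO livers at 72 h against vehicle, anakinra and sham livers. The test of any of the 10 groups then called 3 members. Each of these counts was the same without the block. Another probe for a member could not be tried, since each had 1, and the fit on the groups compared alone was not run for the F tests.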
